A study of Mus musculus with 5 samples.

Results

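The platelet-derived growth factor (PDGF) system was examined through its 4 ligand genes (*Pdgfa*, *Pdgfb*, *Pdgfc* and *Pdgfd*), its 2 signalling receptors (*Pdgfra* and *Pdgfrb*) and the receptor-like gene *Pdgfrl*. These 7 genes were chosen by name from the 21835 genes of the table, and all 7 were among the 12175 genes expressed highly enough to be tested. The data are bulk RNA sequencing of cultured murine lung cancer-associated fibroblasts (CAFs), with 2 samples of vector-transduced CAFs (CAF-vec) and 3 samples of CAFs with forced miR-200 expression (CAF-200). CAF-vec is labelled as wild-type control. CAF-200 carried the cluster that encodes miR-200a, miR-200b and miR-429, delivered by lentivirus in a vector with a neomycin marker. Selection was with G418 per the labels, whose text is the same for both groups. All cells grew in alpha-MEM with serum, and the labels name no added ligand. Both groups are transduced populations of a line labelled CAF, and the strain and age of the donor mice are not given in the labels. Nothing in the labels says that the samples of a group came from separate cultures, so *p* values measure the spread between these samples, which may be technical.

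PDGF ligands are secreted as disulfide-linked dimers. They bring receptor chains together at the cell surface, and the chains then phosphorylate each other and recruit adaptors, kinases and phosphatases. PDGF-AA and PDGF-CC act mainly through PDGFRα, PDGF-BB binds both receptors, and PDGF-DD acts mainly through PDGFRβ. PDGF-C and PDGF-D need a protease to remove an inhibitory domain. In lung, PDGF-A from epithelium drives PDGFRα-positive mesenchymal cells that form alveolar septa, while PDGFRβ is known for pericytes and other mural cells, and both receptors are used as fibroblast markers in tumours.

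The miRNAs delivered to CAF-200 and the places in the PDGF transcripts that match them are given first. Whether the miRNAs act on these transcripts was not tested. The mature miRNAs below are the RefSeq sequences of the mouse cluster on chromosome 4 (GRCm38.p6, minus strand), with the seed, bases 2 to 8, in capitals. The seed pairs with a transcript, and miR-200b and miR-429 share theirs.
miR-200b-3p: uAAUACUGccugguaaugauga
miR-429-3p: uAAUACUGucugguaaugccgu
miR-200a-3p: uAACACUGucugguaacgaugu
The longest annotated 3′ untranslated region (3′ UTR) of each gene in GENCODE M21 (GRCm38) was searched on the transcript strand for the 7 bases complementary to either seed, CAGTATT for miR-200b and miR-429 and CAGTGTT for miR-200a. *Pdgfc* had 1 match and *Pdgfra* had 2, all to miR-200a and none followed by an A. The windows are shown with the match in capitals, all on the plus strand.
Pdgfc, chr3:81213734-81213763: atttctaggcaCAGTGTTctgggctatgct
Pdgfra, chr5:75196532-75196561: tcttgaatagtCAGTGTTcagaaacactgg
Pdgfra, chr5:75197604-75197633: ttatttttaaaCAGTGTTttgactgtatcc

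The *Pdgfc* match lay at bases 1167 to 1173 of a 3′ UTR of 1462 bases. The *Pdgfra* matches lay at bases 1443 to 1449 and 2515 to 2521 of the longest 3′ UTR, which has 3115 bases, and were present in 2 of the 4 annotated coding transcripts with a 3′ UTR. The other 5 genes, *Pdgfa*, *Pdgfb*, *Pdgfd*, *Pdgfrb* and *Pdgfrl*, had no match in any annotated 3′ UTR. Matches were thus present in 2 of 7 PDGF genes, or 28.6%, against 30.3% of the 12060 tested genes with an annotated 3′ UTR (15.7% for the seed shared by miR-200b and miR-429, 20.9% for that of miR-200a). A match is a string of letters and not a measured site.

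The deposited values are CPM, read counts scaled to nearly the same total in each sample, and the depth of the samples is unknown. Fold-changes were computed on log2(CPM + 0.5), which understates the changes of genes with low values, and limma's *p* values were given the Benjamini-Hochberg adjustment across the tested genes. A gene was called changed at an adjusted *p* under 0.01 with a log2 fold-change beyond 1. The SD of the log2 difference was 0.49 for the CAF-vec pair and 0.19 to 0.20 for pairs of CAF-200 samples. Every gene at 0 in 1 CAF-200 sample was at 0 in all 3, so these samples may not be independent. The overexpressed miRNAs were not analysed here. *Zeb1*, a known target of miR-200, was at 43.5 and 50.7 CPM in CAF-vec and at 37.8, 37.5 and 34.1 CPM in CAF-200 (limma log2 fold-change -0.36 at an adjusted *p* of 0.0504). *Zeb2*, another known target, was at 46.2 and 29.8 CPM in CAF-vec and at 31.9, 31.8 and 31.1 CPM in CAF-200, so the groups overlapped (limma log2 fold-change -0.23 at an adjusted *p* of 0.374). Of the 10 fibroblast markers, 9 were tested, and their summed CPM ranged from 13106 to 16946 over CAF-vec samples and from 10543 to 11503 over CAF-200 samples. *Dcn*, *Lum* and *Thy1* were called higher. The abundant *Col1a1* (means of 3308 and 1620 CPM, log2 fold-change -0.91), *Col1a2* (-0.75) and *Vim* (-0.39) had negative values, and *Col3a1* (means of 56.4 and 107 CPM, log2 fold-change 1.02), *Pdpn* (0.22) and *S100a4* (means of 4512 and 4497 CPM, 0.06) had positive ones, none of them called. *Fap* stayed under the testing level with a mean of 0.208 CPM in CAF-vec and 0.292 CPM in CAF-200. The 8 epithelial markers summed to at most 0.583 CPM and the 7 endothelial markers to at most 1.06 CPM in any sample. The 7 haematopoietic markers summed to between 8.34 and 9.40 CPM over CAF-vec and between 12.2 and 12.9 CPM over CAF-200 samples. Of these *Lyz2* was called higher (means of 1.55 and 7.04 CPM) and *Adgre1* and *Cd3e* were at 0. The other tested markers, *Cd68* (log2 fold-change -0.14) and *Csf1r* (-0.46), had negative values and were not called. Of the epithelial markers 3 (*Nkx2-1*, *Sftpc* and *Krt18*) and of the endothelial markers 3 (*Tie1*, *Cldn5* and *Emcn*) were at 0 in every sample. The rest, such as *Krt19* (at most 0.410 CPM), *Vwf* (at most 0.206 CPM) and *Tek* (at most 0.521 CPM), were above 0 in some or all samples. What part the marker shifts have in the PDGF results was not tested. In bulk RNA, fewer cells of a type and less RNA per cell cannot be told apart.

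None of the 7 PDGF genes was called changed in CAF-200, with 0 of 7 lower and 0 of 7 higher by limma, where 2.35% of all tested genes were called lower and 2.37% higher. The ligands *Pdgfa* and *Pdgfb* and the receptors *Pdgfrb* and *Pdgfrl* had all 3 CAF-200 values below both CAF-vec values, as did 37.3% of all tested genes. The same 4 genes were lower at an unadjusted *p* under 0.05, a background of 27.6%, and none was higher at that level, which 17.3% of all tested genes met. With any 1 CAF-200 sample left out, 2 of the 7 were lower at that level (2316 to 2552 of all tested genes). With a block for the replicate number, quantile normalization or median centring, 3 were (2480 to 2801 of all tested genes). *Pdgfb* and *Pdgfrl* were lower at an adjusted *p* under 0.05, a looser rule added after the data were seen, which 18.6% of all tested genes met. Neither passed it once any 1 CAF-200 sample was left out, and *Pdgfb* met the expression minimum of 0.5 CPM in CAF-vec alone. *Pdgfc*, *Pdgfd* and *Pdgfra* overlapped between the groups. The median log2 fold-change was -0.25 over the 7 genes and -0.09 over all tested genes, and 5 of the 7 values were below 0, as were 58.3% of all tested genes. Without *Pdgfb*, 3 of 6 genes were lower without overlap and 1 of 6 was lower at an adjusted *p* under 0.05.

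**Figure D1:**
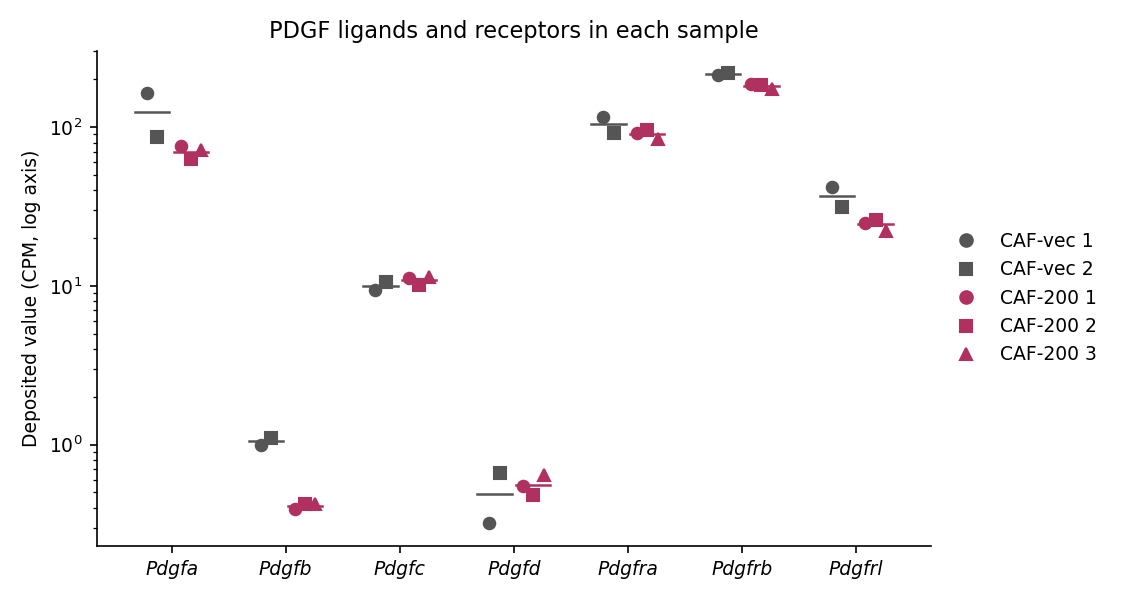
Deposited CPM (log axis) of the 7 PDGF genes in each of the 2 CAF-vec and 3 CAF-200 samples, 1 point a sample, with a line at each group mean. The CAF-200 points lie below both CAF-vec points for *Pdgfa*, *Pdgfb*, *Pdgfrb* and *Pdgfrl*, and the CAF-vec points of *Pdgfa* are the pair farthest apart among those 4 genes.

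*Pdgfa*, the ligand of PDGFRα homodimers, was the most abundant ligand transcript. Its gene (ENSMUSG00000025856) lies on the minus strand of chromosome 5 (138976014 to 138997370 of GRCm38) and overlaps the annotated gene 6330403L08Rik. *Pdgfa* was at 163 and 86.0 CPM in CAF-vec and at 75.8, 62.8 and 71.4 CPM in CAF-200. The 3 CAF-200 values sat close together and below both CAF-vec values, and CAF-vec 1 stood 1.89 times above CAF-vec 2. The means were 124 ± 54.3 CPM (SD, n = 2) and 70.0 ± 6.60 CPM (SD, n = 3), so CAF-200 held 56.3% of the CAF-vec level. The log2 fold-change was -0.76 (95% interval -1.42 to -0.09, adjusted *p* = 0.0817, limma), which did not pass the test. Without CAF-vec 2 the log2 fold-change was -1.22 (adjusted *p* = 7.49e-05, limma) and *Pdgfa* would be called lower, and without CAF-vec 1 it was -0.30 (adjusted *p* = 0.0491, limma).

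*Pdgfb*, whose product binds both receptors and which endothelial cells and platelets are known to supply, entered the test only through its CAF-vec values, as all 3 CAF-200 values were under the minimum of 0.5 CPM. A gene kept in that way had to differ between the groups, so its *p* supports nothing by itself. It lies on chromosome 15 (ENSMUSG00000000489, minus strand, 79995874 to 80014977) and overlaps the annotated genes Mir7213 and Gm41361. *Pdgfb* was at 1.00 and 1.10 CPM in CAF-vec and at 0.391, 0.423 and 0.423 CPM in CAF-200. Both groups were tight and did not overlap. The means were 1.05 ± 0.0687 CPM (SD, n = 2) and 0.412 ± 0.0181 CPM (SD, n = 3), or 39.2% of the CAF-vec level, the lowest such share among the 7 genes. Its log2 fold-change was -0.76 (standard error 0.143, adjusted *p* = 0.0144, limma), and ranged from -0.54 with 1 CPM added to -1.17 with 0.1 CPM added, where the adjusted *p* was 0.0158.

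*Pdgfc* and *Pdgfd*, the ligands that need proteolytic activation, had overlapping groups. *Pdgfc* (ENSMUSG00000028019, chromosome 3, plus strand, 81036416 to 81214040), which carries 1 of the miR-200a matches shown above, was at 9.44 and 10.6 CPM in CAF-vec and at 11.3, 10.1 and 11.3 CPM in CAF-200. Its log2 fold-change was 0.11 (95% interval -0.16 to 0.38, adjusted *p* = 0.449, limma), and was 0.03 without CAF-vec 1, 0.20 without CAF-vec 2, 0.18 after quantile normalization and 0.21 after centring each sample on its median. *Pdgfd* (ENSMUSG00000032006, chromosome 9, plus strand, 6168584 to 6378850) was the lowest ligand in CAF-vec, at 0.320 and 0.660 CPM there and at 0.551, 0.484 and 0.642 CPM in CAF-200. All 3 CAF-200 values of *Pdgfd* lay between the 2 CAF-vec values. Reads of genes that overlap these, Gm16000 for *Pdgfc* and Ddi1 for *Pdgfd*, could be split between the genes in counting. Its log2 fold-change was 0.12 (95% interval -0.39 to 0.62, adjusted *p* = 0.684, limma) and was -0.13 without CAF-vec 1, 0.37 without CAF-vec 2, 0.06 without CAF-200 3 and 0.03 to 0.22 under other scalings and pseudocounts.

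Both signalling receptors stayed abundant in CAF-200. The paper reports lower RT-qPCR levels of most CAF markers in CAF-200. It names PDGFα among the suppressed markers and lists primers for *Pdgfra*, whose sequencing values overlapped between the groups here. *Pdgfra*, the receptor of the PDGF-A and PDGF-C ligands, lies on chromosome 5 (ENSMUSG00000029231, plus strand, 75152292 to 75198215) and overlaps the annotated genes Gm42802, Gm42803 and Mir7025. *Pdgfra*, with 2 miR-200a matches, was at 116 and 91.5 CPM in CAF-vec and at 91.2, 95.3 and 83.7 CPM in CAF-200, so the groups overlapped. Its log2 fold-change was -0.20 (95% interval -0.52 to 0.13, adjusted *p* = 0.284, limma). The value was -0.37 without CAF-vec 2 (adjusted *p* = 0.00648, limma) and -0.03 without CAF-vec 1, and it was -0.10 after either quantile normalization or median centring.

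*Pdgfrb*, the receptor of PDGF-B and PDGF-D, lies on chromosome 18 (ENSMUSG00000024620, plus strand, 61045150 to 61085061). It was the PDGF gene with the highest CPM in both groups, at 214 and 218 CPM in CAF-vec and 187, 185 and 174 CPM in CAF-200. The groups did not overlap, and the spread within each was small, with means of 216 ± 3.31 CPM (SD, n = 2) and 182 ± 6.80 CPM (SD, n = 3). CAF-200 held 84.2% of the CAF-vec level. The log2 fold-change was -0.25 (95% interval -0.46 to -0.04, adjusted *p* = 0.0776, limma) and came to -0.14 after quantile normalization and -0.15 after centring each sample on its median, both over 1.5 times smaller. A single mural marker was called in the same comparison. The 9 mural markers, 5 of them tested, summed to between 108 and 138 CPM over CAF-vec and between 664 and 718 CPM over CAF-200 samples. Nearly all of it was *Acta2* (means of 109 and 674 CPM, called higher). *Kcnj8* and *Abcc9*, defining pericyte genes, were at 0 and *Rgs5* was at or under 0.0905 CPM in every sample. *Cspg4* (-0.41) and *Notch3* (-0.31) had negative log2 fold-changes, and *Des* and *Mcam* (both 0.02) small positive ones, none of them called. The paper ties α-SMA, the protein of *Acta2*, to myofibroblasts. It reports less α-SMA staining in CAF-200, the opposite direction to the RNA here. The part of the mural markers in the *Pdgfrb* level was not tested.

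*Pdgfrl* encodes a secreted protein that resembles the extracellular part of PDGFRβ and has no kinase domain. It lies on chromosome 8 (ENSMUSG00000031595, plus strand, 40926212 to 40990785). *Pdgfrl* was at 42.1 and 31.4 CPM in CAF-vec and at 25.0, 25.9 and 22.3 CPM in CAF-200, with no overlap. CAF-200 held 66.4% of the CAF-vec level, and the log2 fold-change was -0.57 (standard error 0.150, 95% interval -0.94 to -0.20, adjusted *p* = 0.0375, limma). It was -0.78 without CAF-vec 2 (adjusted *p* = 0.000441, limma) and -0.36 without CAF-vec 1.

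**Figure D2:**
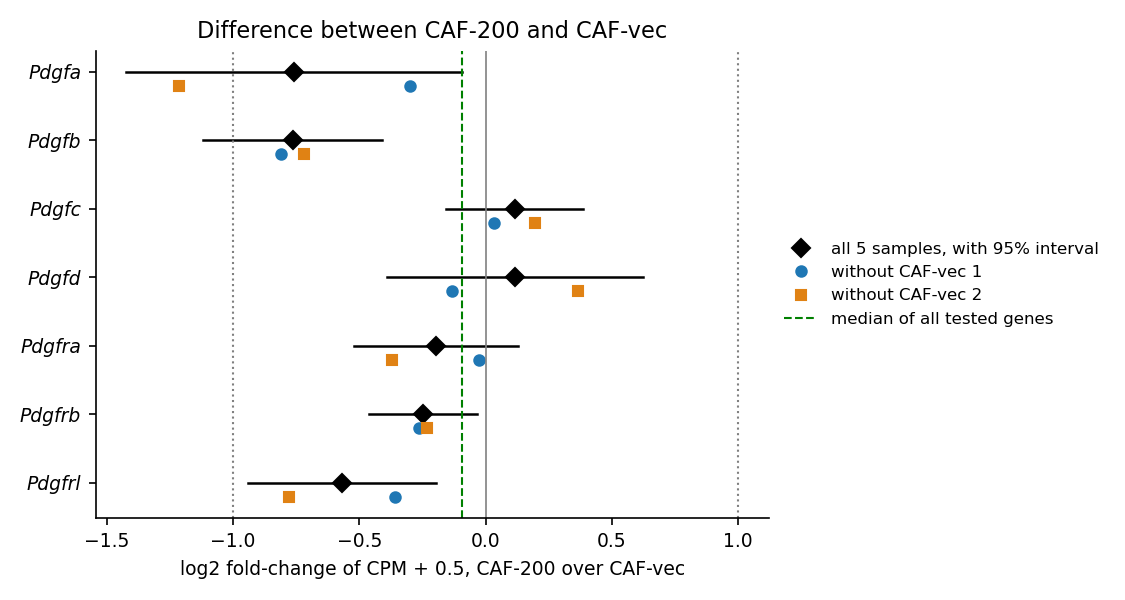
Log2 fold-change (CAF-200 over CAF-vec, on CPM + 0.5) of each PDGF gene over all 5 samples with its 95% interval, and without CAF-vec 1 or CAF-vec 2. The dashed line is the median of all tested genes (-0.09) and dotted lines mark a log2 fold-change of 1 in either direction; the 1 point past a dotted line is *Pdgfa* without CAF-vec 2, at -1.22.

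Levels of different genes were compared per length, as CPM per kilobase of the longest coding transcript. In CAF-vec the order was *Pdgfa* (60.4 ± 26.4), *Pdgfrb* (39.9 ± 0.610), *Pdgfrl* (23.7 ± 4.90), *Pdgfra* (15.2 ± 2.58), *Pdgfc* (2.85 ± 0.240), *Pdgfb* (0.357 ± 0.0233) and *Pdgfd* (0.156 ± 0.0767 CPM per kilobase; SD, n = 2). The values of *Pdgfa* (79.1 and 41.8) lay above those of *Pdgfrb* (39.4 and 40.3 CPM per kilobase) in both samples. In CAF-200 *Pdgfa* (34.0 ± 3.21) and *Pdgfrb* (33.5 ± 1.25) did not differ beyond their spread, and *Pdgfrl* (15.8 ± 1.23) and *Pdgfra* (13.2 ± 0.864 CPM per kilobase; SD, n = 3) followed. The 2 scarcest ligands changed places, with *Pdgfd* (0.179 ± 0.0252) above *Pdgfb* (0.140 ± 0.00616 CPM per kilobase; SD, n = 3) in CAF-200. Among the 4 ligands *Pdgfa* made up 96.2% and 92.1% of the per-length sum in CAF-vec and 91.3%, 90.6% and 90.7% in CAF-200. *Pdgfc* made up 3.26% and 6.66% in CAF-vec and 7.93%, 8.53% and 8.43% in CAF-200. *Pdgfa* was thus the main ligand transcript in every sample.

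The balance between pairs of PDGF genes was compared as log2 ratios within each sample, 3 pairs in all, on CPM + 0.5 and also on the CPM alone, an alternative added after the data were seen. The log2 ratio of *Pdgfra* to *Pdgfrb* (CPM + 0.5) was -0.87 and -1.25 in CAF-vec and -1.03, -0.95 and -1.05 in CAF-200, a difference of 0.05 (*p* = 0.8, two-sided exact permutation test) and of 0.05 without the added 0.5 CPM. It was 0.24 without CAF-vec 1 and -0.14 without CAF-vec 2. The log2 ratio of *Pdgfa* to *Pdgfb* depended on the added value, since *Pdgfb* lies near it. With 0.5 CPM added it was 6.77 and 5.76 in CAF-vec and 6.42, 6.10 and 6.28 in CAF-200, a difference of 0.01 (*p* = 1, two-sided exact permutation test). On the CPM alone it was 7.35 and 6.29 in CAF-vec and 7.60, 7.22 and 7.40 in CAF-200, a difference of 0.59 (*p* = 0.4, two-sided exact permutation test), with 2 of the 3 CAF-200 values above both CAF-vec values. With 0.5 CPM added, the difference was 0.51 without CAF-vec 1 and -0.50 without CAF-vec 2. For *Pdgfc* to *Pdgfd* the difference was -0.0017 with 0.5 CPM added and -0.15 on the CPM alone (*p* = 1 and 0.8, two-sided exact permutation test), and with 0.5 CPM added it was 0.17 without CAF-vec 1 and -0.17 without CAF-vec 2. The adjusted *p* was 1 for all 3 pairs with 0.5 CPM added and 0.8 for all 3 on the CPM alone. With 10 arrangements of 2 against 3 samples, no *p* under 0.2 is possible, so these tests could not pass 0.05.

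The genes whose log2(CPM + 0.5) values over the 5 samples were most like those of *Pdgfb* were *Samd4*, *Ttyh2* and *Il1rl1*. *Pdgfb* was taken because its log2 fold-change was the largest in size of the 7 at this setting, -0.765 against -0.758 for *Pdgfa*. With 1 CPM added *Pdgfa* was ahead, at -0.75 against -0.54. Likeness was the Euclidean distance between centred values, which was 0.0412, 0.0572 and 0.0622 for these genes. As *Pdgfb* was tested only through its CAF-vec values, it had to differ between the groups, and the likeness supports nothing by itself. *Samd4* was at 28.3 and 29.5 CPM in CAF-vec and at 16.3, 16.5 and 16.8 CPM in CAF-200. *Il1rl1*, the receptor of interleukin-33, was at 1238 and 1299 CPM in CAF-vec and at 739, 747 and 788 CPM in CAF-200, and *Ttyh2* had a log2 fold-change of -0.73. The 0.5 CPM added shrinks the difference of *Pdgfb* but hardly that of these more abundant genes. On the CPM alone, CAF-200 held 39.2% of the CAF-vec level of *Pdgfb*, 57.2% of that of *Samd4*, 59.5% of that of *Ttyh2* and 59.7% of that of *Il1rl1*.

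Other genes of the pathway were followed in 5 lists of 71 genes, of which 67 were tested (*Kit*, *Flt3*, *Pcsk5* and *St14* were too low). Of the 67, 3 were called higher and 0 lower by limma, where 2.37% and 2.35% of all tested genes were. At an unadjusted *p* under 0.05, 13 were lower and 18 higher (backgrounds of 27.6% and 17.3%). With a block for the replicate number the counts at that level were 8 lower and 14 higher (2480 and 1574 of all tested genes). At an adjusted *p* under 0.05 there were 9 lower and 14 higher, against backgrounds of 18.6% and 11.9%. The median over the 67 genes was 0.06. All 5 lists were chosen with earlier results of these data known, so their counts against the backgrounds are descriptive only.

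The 3 called genes belong to the 13 early genes that PDGF is known to induce in fibroblasts. *Cxcl1*, a neutrophil chemokine, was at 2.01 and 2.43 CPM in CAF-vec and at 27.1, 29.5 and 19.7 CPM in CAF-200 (limma log2 fold-change 3.24 at an adjusted *p* of 0.00145). *Has2*, which makes hyaluronan, was at 0.274 and 0.319 CPM in CAF-vec and at 5.18, 4.75 and 8.18 CPM in CAF-200 (limma log2 fold-change 3.00 at an adjusted *p* of 0.00254). *Has2* met the minimum of 0.5 CPM in CAF-200 alone, so it had to differ to be tested, and with at least 1 CPM required in every sample it was not tested and 2 pathway genes were called higher. *Ccl2*, a monocyte chemokine, was at 15.7 and 32.0 CPM in CAF-vec and at 114, 125 and 101 CPM in CAF-200 (limma log2 fold-change 2.31 at an adjusted *p* of 0.00570). All 3 rose in every CAF-200 sample relative to both CAF-vec samples. The list as a whole had a median log2 fold-change of 0.76, with 9 of 13 genes higher without overlap, where 24.3% of all tested genes were, and 8 of 13 higher at an adjusted *p* under 0.05 (background 11.9%). Without *Has2* these were 8 of 12 and 7 of 12, with a median of 0.64. The list was chosen with earlier results of these data known, so its excess over the backgrounds is not independent of the data. *Myc* was at 45.9 and 52.6 CPM in CAF-vec and at 89.9, 78.6 and 87.9 CPM in CAF-200 (limma log2 fold-change 0.79 at an adjusted *p* of 0.00691). *Sgpl1*, named after its value was seen, was the 1 gene of the list lower at an adjusted *p* under 0.05, with a log2 fold-change of -0.49. These genes also respond to other stimuli, and no PDGF protein or receptor activity was measured here. Leaving out any 1 CAF-200 sample left 0 pathway genes called higher, and 0 or 1 of all tested genes, while leaving out CAF-vec 2 gave 5 pathway genes. Over all omissions of 1 sample the log2 fold-change was 3.12 to 3.41 for *Cxcl1*, 2.78 to 3.14 for *Has2* and 1.80 to 2.81 for *Ccl2*, and without 1 CAF-200 sample their adjusted *p* ranged from 0.0118 to 0.0368 (limma).

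**Figure D3:**
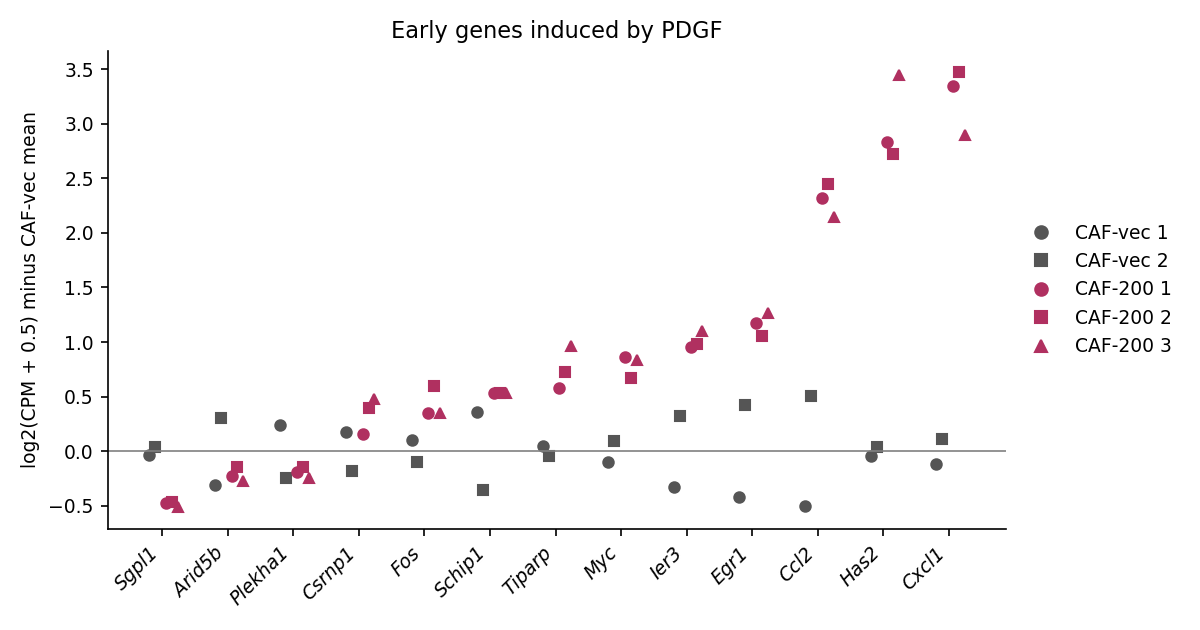
Log2(CPM + 0.5) minus the CAF-vec mean for the 13 early genes in each sample, 1 point a sample. *Cxcl1*, *Has2* and *Ccl2* stand farthest above the CAF-vec mean, with log2 fold-changes of 3.24, 3.00 and 2.31, and *Sgpl1* lies below it.

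Among the 11 tested genes that process or bind PDGF ligands or act as co-receptors, 3 were lower and 1 was higher at an adjusted *p* under 0.05 (backgrounds of 18.6% and 11.9%), with a median log2 fold-change of -0.25. *Nrp2*, a neuropilin co-receptor, was at 92.8 and 91.2 CPM in CAF-vec and at 52.2, 51.4 and 50.8 CPM in CAF-200 (limma log2 fold-change -0.83 at an adjusted *p* of 0.00305). The others, named after their values were seen, were *Nrp1* (-0.44), *Furin* (-0.37), a protease that cuts PDGF precursors, and *Plaur* (0.60), the urokinase receptor. *Plat* and *Plau*, also chosen after their values were seen, encode the plasminogen activators known to activate PDGF-CC and PDGF-DD and overlapped between the groups with log2 fold-changes of 0.06 and 0.14.

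The adaptors, kinases and enzymes that bind the activated receptors had 4 of 22 genes lower at an adjusted *p* under 0.05, near the background of 18.6%, and 0 higher (background 11.9%), with a median of -0.07. *Fyn*, a Src-family kinase, was at 54.6 and 51.2 CPM in CAF-vec and at 36.5, 33.7 and 33.0 CPM in CAF-200 (limma log2 fold-change -0.61 at an adjusted *p* of 0.00801). Its adjusted *p* was 0.0417 to 0.0557 when 1 CAF-200 sample was left out (limma), over 0.05 without CAF-200 2 or CAF-200 3. Of the 16 negative regulators, 1 was lower (background 18.6%) and 2 were higher at an adjusted *p* under 0.05, the latter near the background of 11.9%. *Spry1*, an inhibitor of Ras signalling, was at 12.8 and 13.8 CPM in CAF-vec and at 8.19, 8.81 and 8.43 CPM in CAF-200 (limma log2 fold-change -0.62 at an adjusted *p* of 0.00902). *Lrig1*, which lowers receptor tyrosine kinase levels, was at 27.3 and 22.5 CPM in CAF-vec and at 43.7, 40.8 and 47.0 CPM in CAF-200 (limma log2 fold-change 0.81 at an adjusted *p* of 0.00822). With 1 CAF-200 sample left out the adjusted *p* was 0.0516 to 0.0576 for *Spry1* and 0.0421 to 0.0520 for *Lrig1* (limma), over 0.05 for *Lrig1* without CAF-200 3. Of the relatives of the PDGF receptors and their ligands, 3 of 5 tested genes were higher at an adjusted *p* under 0.05 (background 11.9%). At that level 0 were lower (background 18.6%). The 3 were the ligands *Csf1*, *Kitl* (0.70) and *Il34* (0.80). The receptor *Csf1r* (-0.46) and the ligand *Flt3l* (-0.39) had negative log2 fold-changes. All but *Csf1* are named after their values were seen. *Csf1*, the macrophage growth factor, was at 558 and 664 CPM in CAF-vec and at 1088, 1046 and 1119 CPM in CAF-200 (limma log2 fold-change 0.83 at an adjusted *p* of 0.00816). Its adjusted *p* was 0.0509 to 0.0574 with 1 CAF-200 sample left out (limma).

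**Figure D4:**
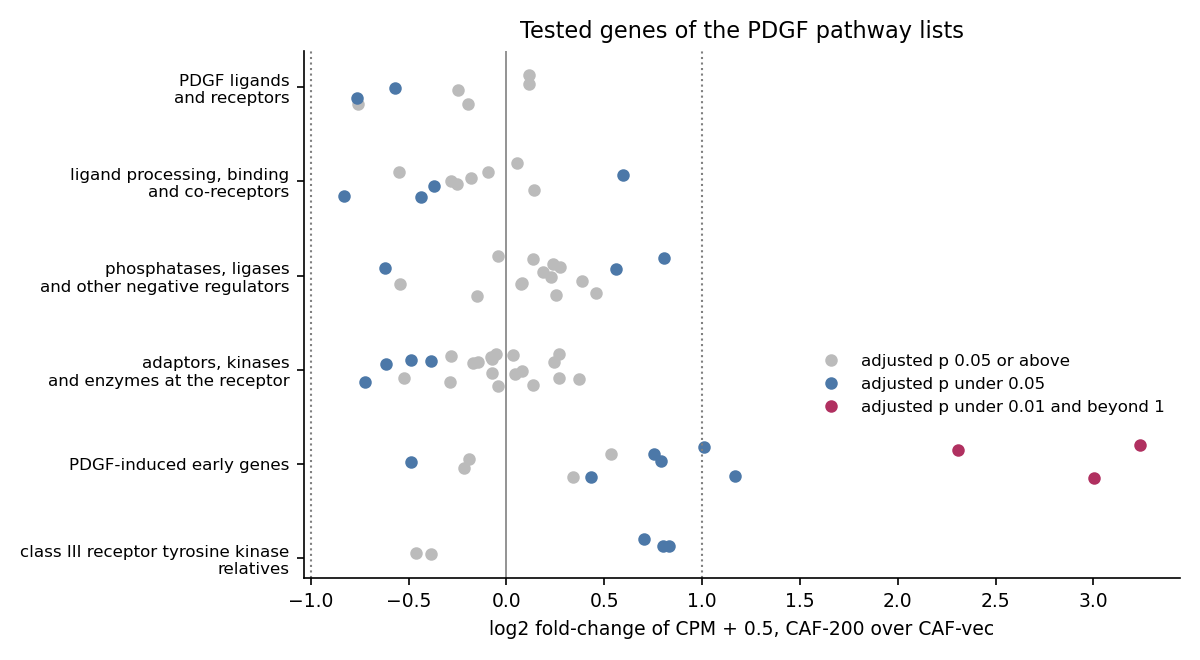
Log2 fold-change (CAF-200 over CAF-vec, on CPM + 0.5) of every tested gene of the 5 pathway lists and of the 7 PDGF genes, 1 point a gene, with vertical offsets only to keep points apart. The PDGF genes lie between -0.76 and 0.12, and the early genes reach 3.24.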

How the data were processed

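Total RNA of 2 CAF-vec and 3 CAF-200 samples was sequenced for the authors by a company as paired-end stranded mRNA libraries. The submitters' processing notes name FastQC, cutadapt, Trimmomatic, STAR, RSEM and edgeR with the builds GRCm38 and mm10, without versions. The authors deposited 1 table of CPM in a file named for TMM, a scaling by trimmed means. Columns summed to 999956 to 1000111 CPM. No value above 0 was whole and counts could not be recovered, so no count test was run and depth is unknown. Zeros in CAF-200 were shared by its 3 samples: 6127 genes were at 0 in all 3, and 0 genes in some but not all. Some CAF-200 values were very small, such as *Kit* at 1.16e-05 CPM in CAF-200 1 and 2.75e-05 CPM in CAF-200 3. The 3 columns may thus not be independent, and the CAF-200 spread, the *p* values and the counts without overlap all rest on them. The cause was not tested. The methods describe triplicate RNA, another extraction kit and a hygromycin vector, which differs from the labels.

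The test ran on genes reaching 0.5 CPM in 2 or more samples, as log2(CPM + 0.5), in limma 3.58.1 under R 4.3.3 (variance trend, 3 residual degrees of freedom), with all 5 samples and no covariate. In simulated data the test recovered a median of 77.25% of 200 genes changed by a log2 value of 2, with at most 3 false calls in any of 20 runs. Names (21795 of 21835 identifiers matched), coordinates and transcripts came from GENCODE M21, and miRNAs from RefSeq.

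Named genes were all 7 PDGF genes, list genes with an adjusted *p* under 0.01 (at most 5 a list, by size), and the 3 genes most like the PDGF gene of largest change. Others are marked in the text as chosen after their values were seen, apart from markers, *Zeb1* and *Zeb2*. The members and lists were chosen with earlier results of these data known. Alternatives were other pseudocounts (0.1, 1, and none for ratios), no filter, a minimum of 1 CPM in each sample, median centring, quantile normalization, other thresholds, eBayes without the trend, a block for the replicate number and the omission of each sample. Figures were drawn with matplotlib 3.10.9, and SciPy 1.17.1, numpy 2.4.6 and pandas 2.3.3 ran under Python 3.11.15.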

Additional observations from a re-analysis of the deposited data

How the results depend on the processing

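The count of PDGF genes called lower was 0 to 1 with each sample left out (1 without CAF-vec 2, *Pdgfa*) and 2 at an adjusted *p* under 0.05 with any fold-change, a rule added after the data were seen. It was 0 under every other alternative, and no PDGF gene was called higher under any. The log2 fold-change of *Pdgfa* was -1.22 to -0.30 with each sample left out, and that of *Pdgfd* from -0.13 to 0.37, turning below 0 without CAF-vec 1. The other 5 PDGF genes kept their direction in all alternatives, where *Pdgfb* was not tested with at least 1 CPM in every sample, nor was *Pdgfd*. Over all tested genes 286 were called lower and 289 higher. With a log2 fold-change beyond 0.5 these were 677 and 541, at an adjusted *p* under 0.05 with any fold-change 2265 and 1446, and with each sample left out 0 to 955 and 0 to 625. At an adjusted *p* under 0.05 with the fold-change rule kept, 436 were lower. After median centring 228 were lower and 365 higher. Pathway genes called lower were 0, or 3 beyond a log2 fold-change of 0.5 and 9 with any fold-change. Those called higher were 3, with 0 to 5 when each sample was left out, 6 beyond 0.5, 5 at an adjusted *p* under 0.05 and 14 with any fold-change. With no filter, or with at least 1 CPM in every sample, 2 pathway genes were called higher. Leaving out a CAF-vec sample leaves 1, which is then assumed to vary like CAF-200. The cause of these differences was not tested.

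Replicate numbers are shared by 2 pairs only and the labels do not say that they mark a batch. Deviations from the group means correlated at 0.25 for number 1 and 0.13 for number 2, and at 0.12 for CAF-vec 2 with CAF-200 3. With 2 CAF-vec samples the deviations of 1 mirror those of the other. These correlations are therefore tied to each other and cannot settle whether the numbers mark pairs. With the replicate block 70 genes were called lower and 101 higher, 0 PDGF genes were called, and 3 pathway genes were called higher. The adjusted *p* of *Pdgfb* was 0.0752 and that of *Pdgfrl* 0.115 with the block (limma). With the block the adjusted *p* was 0.0583 for *Fyn*, 0.0622 for *Spry1* and 0.0678 for *Csf1* (limma). The log2 ratio of *Pdgfa* to *Pdgfb* differed between groups by 0.01 with 0.5 CPM added, 0.41 with 0.1, -0.22 with 1 and 0.59 with none, and by -0.50 to 0.51 with each sample left out. CAF-vec has only 2 samples, and the depth is unknown.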
